A study of Mus musculus with 2 samples.

Results

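The genes described here are the MHC class II genes of the mouse, which load peptides from engulfed proteins and present them to CD4 T cells. They are H2-Aa, H2-Ab1 and H2-Eb1, the chains of the classical molecules; Cd74, the invariant chain; H2-DMa, H2-DMb1, H2-Oa and H2-Ob, the peptide editors; and Ciita, the transactivator. They were chosen by symbol, and a probe was counted for a gene when its RefSeq accession led to that symbol alone. All 9 genes were found, with 14 probes, among 22911 genes with a named probe.

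The RNA came from regulatory T cells (Tregs) of mouse kidney, taken at day 28 after induction of cGN, a disease that anti-GBM antibodies bring on by binding the basement membrane of the glomerulus. Sorted cells carried CD45, CD3e, CD4 and FoxP3-hCD2, a reporter that places human CD2 on cells expressing Foxp3. Both arrays carry that treatment, and no untreated sample, other cell type or other day was compared. By title the arrays are numbered repeats of 1 condition, but they differ in the antibody lot, I or M, and per the labels severity varied with the lot. There was 1 array per lot, so no test was possible and every difference describes 2 hybridisations. No source used here gives the strain, the age or the number of mice per array.

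The deposited files contradict each other on the lots. Array 1 is the scanner output filed with lot I and array 2 the output filed with lot M, whereas the value table has them the other way round. Set against the table's lot M column, the log2 ratio of array 1's signal to the table value varied with an SD of 0.000189 (13919 probes), and against its lot I column with an SD of 0.156. The arrays are therefore called by number. Each difference is a log2 level of array 2 less that of array 1. By the value table, every sign would point to the other lot. A level is the log2 of the processed signal over the 75th percentile of its array, so a level of 0 is at that percentile. Errors come from the scanner's model for single spots, narrow when spots or probes are averaged, and contain no variation between mice.

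Class II molecules are made constitutively by dendritic cells, B cells and macrophages, and by other cells, such as kidney epithelium and endothelium, after exposure to interferon gamma. An alpha and a beta chain assemble in the endoplasmic reticulum around the invariant chain. In endosomes the invariant chain is cut down to a fragment that H2-DM exchanges for peptide, and H2-O restrains H2-DM. CIITA does not bind DNA itself but docks on factors that sit on a shared promoter module. Mouse T cells are not a usual source of these transcripts.

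The promoter module is shown because it is the surface on which Ciita, itself a member, acts. As searched below, it was found in 5 of the 6 members with a promoter window. RefSeq promoter windows (GRCm38.p6, 250 bases before to 50 after a gene's start) were matched for 6 of the 9 genes in 7 windows, and H2-Ab1, Cd74 and Ciita were not matched. The Y box was searched as TGATTGG and the X box core as GNAAC, on both strands. A pair was counted when GNAAC lay before TGATTGG with 20 to 30 bases between them, a range set after these windows were read. The 5 stretches below hold such a pair, in capitals, and all lie on chromosome 17. In H2-Aa the capitals between them mark TGACGTCA, the full cyclic AMP response element, which overlaps neither motif.

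H2-Aa, chr17:34287862-34287909, minus strand: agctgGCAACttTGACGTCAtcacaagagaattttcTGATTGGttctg
H2-Eb1, chr17:34305771-34305817, plus strand: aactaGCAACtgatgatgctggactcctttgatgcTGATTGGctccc
H2-DMb1, chr17:34153092-34153139, plus strand: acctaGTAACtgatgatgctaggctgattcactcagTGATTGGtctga
H2-Oa, chr17:34092298-34092345, plus strand: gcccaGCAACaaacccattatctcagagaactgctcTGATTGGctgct
H2-Ob, chr17:34238813-34238857, plus strand: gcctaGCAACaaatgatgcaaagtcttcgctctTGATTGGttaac

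The Y box began between 45 and 63 bases before the gene's start in these 5 genes, with 23 to 26 bases between it and the X core. Of all 32851 promoter windows, 7.82% held TGATTGG on either strand, 84.8% held GNAAC, 1.79% held TGACGTCA and 0.323% held the spaced pair. Neither window of H2-DMa held TGATTGG, which says only that these letters are not in those windows.

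All 9 genes were detected on both arrays. Each of the 14 probes was printed once, was well above background on both arrays, and carried no outlier or saturation flag. The local background beside these spots lay between 24 and 31 units. The faintest member probe gave 3.42 times the detection floor of its array, the lowest signal among probes well above background, and the brightest gave 2698 times the floor. H2-Ea, the alpha chain partner of H2-Eb1, is a transcribed pseudogene in the annotation and had no probe with a matched accession.

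**Figure D1:**
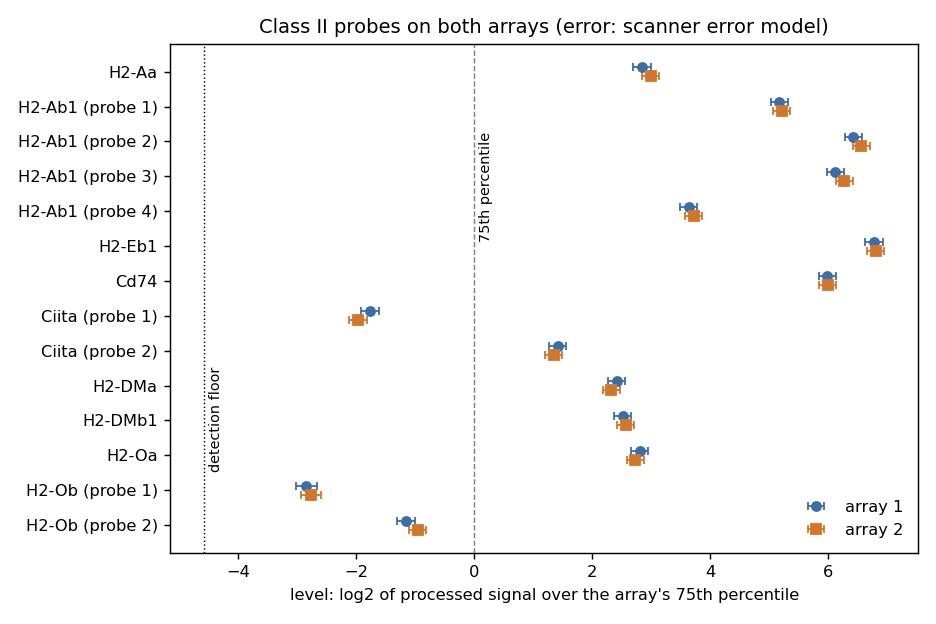
Level of each of the 14 class II probes on array 1 (circles) and array 2 (squares), as log2 of the processed signal over the array's 75th percentile; bars show 1 error of the scanner's model, the dashed line the 75th percentile and the dotted line the detection floor. For every probe the difference between arrays was smaller than its error, and the H2-Ob probes and 1 Ciita probe lay under the 75th percentile.

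The classical chains gave strong signals. H2-Aa, the alpha chain of the I-A molecule, had a signal of 2054 units on array 1 and 2223 on array 2, against a local background of 28 and 26. Its level was 2.85 and 2.99, a difference of 0.15 ± 0.20. The 2 values overlap within the error, which spans -0.06 to 0.35 for the difference.

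H2-Ab1, the beta chain of I-A, was read by 4 probes with signals of 10320, 24544, 19957 and 3563 units on array 1 and of 10418, 26425, 21644 and 3696 on array 2. Array 2 was brighter in all 4, and the probe differences ran from 0.04 to 0.15. The gene's level was 5.34 on array 1 and 5.45 on array 2, a difference of 0.10 ± 0.10. This was the 1 gene of the 9 whose difference exceeded its error, by a ratio of 1.01, and no single probe of it did. An error over 4 probes treats them as independent, although they were read from the same hybridisation.

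H2-Eb1, the beta chain of the I-E molecule, had signals of 31406 and 31445 units and levels of 6.78 and 6.81. The difference was 0.03 ± 0.20. Together the 6 probes of the classical chains were all brighter on array 2 after scaling, but H2-Eb1 turned to lower on array 2 under scaling by the spike-in controls or quantile normalisation, as did 1 H2-Ab1 probe with spike-ins.

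Cd74 encodes the invariant chain, which blocks the groove and guides class II molecules to endosomes. Its probe gave 18173 units on array 1 and 17881 on array 2, with levels of 5.992 and 5.999. The difference of 0.01 ± 0.20 was the smallest of the 9 genes in size, and its sign changed under 8 of 14 alternatives.

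The peptide editors had no common sign. H2-DMa and H2-DMb1 form H2-DM, which catalyses the exchange of the invariant chain fragment for peptide. H2-DMa gave 1527 and 1399 units on arrays 1 and 2, a level of 2.42 and 2.32 and a difference of -0.10 ± 0.20. H2-DMb1 gave 1643 and 1661 units, a level of 2.52 and 2.57 and a difference of 0.05 ± 0.20, which became negative under spike-in scaling. H2-DMb1 has a close paralog, H2-DMb2, and whether the probes tell them apart was not tested. The H2-DMb2 probe was dim, at 29.8 and 27.2 units, a level of -3.26 and -3.36.

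H2-Oa and H2-Ob form H2-O, the inhibitor of H2-DM, which in mice is mainly a product of B cells, thymic epithelium and some dendritic cells. H2-Oa had 2005 units on array 1 and 1861 on array 2, a level of 2.81 and 2.74. Its difference of -0.08 ± 0.20 was within the error. H2-Ob was read by 2 dim probes, one with 39.8 and 41.0 units and the other with 128 and 144 on arrays 1 and 2. Both were brighter on array 2, and the gene differed by 0.14 ± 0.16 at a level of -1.999 and -1.862. After stricter filtering of dim probes only the brighter probe remained, with a difference of 0.20.

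Chain partners can be set against each other within the arrays. The alpha chain's difference minus that of the beta chain was 0.04 ± 0.23 for I-A, -0.14 ± 0.29 for H2-DM and -0.21 ± 0.26 for H2-O. In none of the 3 pairs did the partners differ by more than the error.

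Ciita, the transactivator of the family, was measured by 2 probes. One gave 762 units on array 1 and 712 on array 2, and the other 83.9 and 71.0. Both were dimmer on array 2, by 0.07 and 0.21, each within its error. The gene's level was -0.18 and -0.31, and its difference of -0.14 ± 0.15 was the most negative of the 9 genes. Its sign held under 13 of 14 alternatives, the exception being the value table with its exchanged lots. The same was true of H2-Aa, H2-Ab1, H2-DMa, H2-Oa and H2-Ob.

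Across the family the arrays were close. Of the 9 genes, 6 were higher in array 2 and 3 were lower, against 53.8% of the 13743 genes measured on both arrays that were higher. Under spike-in scaling 3 of the 9 and 36.2% of all genes were higher. The median difference was 0.03 for the class II genes and 0.01 for all measured genes, and the members ran from -0.14 to 0.15. None of the 9 genes reached a 2-fold difference, as 1.43% of all measured genes did, and none reached 1.5-fold, as 5.97% did. A difference beyond 1 error was seen in 1 of the 9 genes and in 28.6% of all measured genes. Counts over 9 genes were read as descriptions and not tested.

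The scanner's error is wider than the repeatability of spots. Over 277 probes printed at least 3 times on array 1 with a level above the 75th percentile, repeated spots had an SD of 0.041, which gives 0.058 for a difference between 2 single spots, and on array 2 the SD was 0.040. That figure leaves out labelling and hybridisation. The spread of other genes includes them. Among the 2526 genes with a mean level between 2 and 4, the central 90% of differences ran from -0.17 to 0.22, and H2-Aa, H2-DMa, H2-DMb1 and H2-Oa lay inside. For the 1087 genes between 4 and 6 it ran from -0.15 to 0.18, with H2-Ab1 and Cd74 inside. All 9 class II genes lay within the central 90% of genes in their own range of levels.

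**Figure D2:**
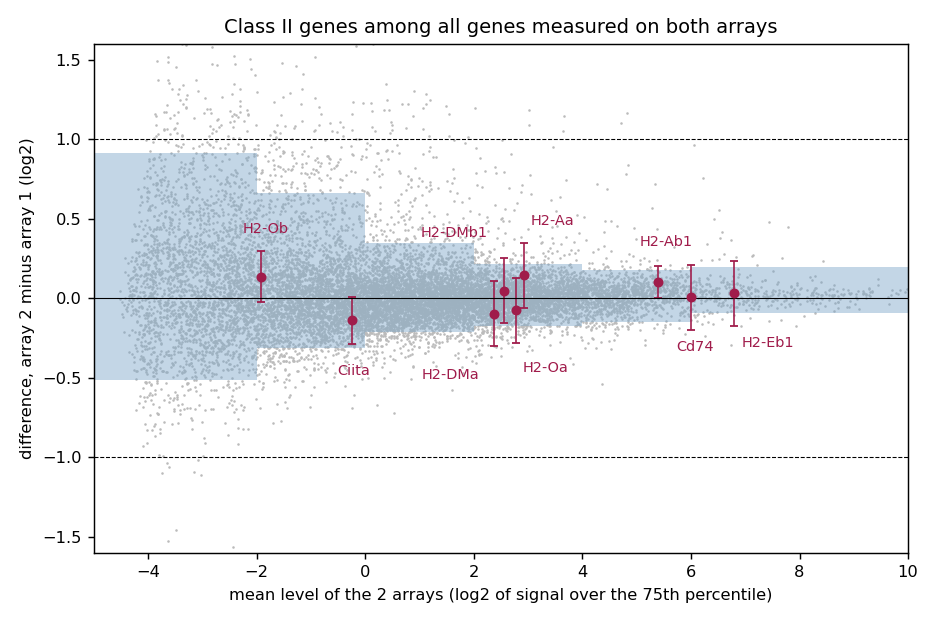
Difference between arrays (vertical axis, log2, array 2 minus array 1) against the mean level of both arrays for all 13743 genes measured on both (grey; 21 genes beyond 1.6 in size lie outside the axis), with the 9 class II genes in red and bars of 1 scanner error. Blue bands mark the central 90% of genes in 6 ranges of level and dashed lines a 2-fold difference, and all 9 class II genes sit inside the bands.

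All members other than Cd74 and Ciita lie in one stretch of chromosome 17, where genes of class I presentation are interspersed. In the annotation the order is H2-Oa, Brd2, H2-DMa, H2-DMb2, H2-DMb1, Psmb9, Tap1, Psmb8, Tap2, H2-Ob, H2-Ab1, H2-Aa, H2-Eb1, H2-Eb2 and H2-Ea, leaving out 1 lncRNA gene that no probe read. Tap1 and Tap2, the peptide transporter of class I presentation, differed by -0.17 ± 0.14 and 0.04 ± 0.15. Psmb8 and Psmb9, subunits of the immunoproteasome, both differed by -0.11 ± 0.20. H2-Eb2, a little expressed beta chain gene, was dim at a level of -2.59 and -2.71, from 1 of its 2 probes, and differed by -0.12 ± 0.24. Of the 14 genes of this order measured on both arrays, Tap1 and H2-Ab1 were the ones whose difference exceeded the error, in opposite directions.

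**Figure D3:**
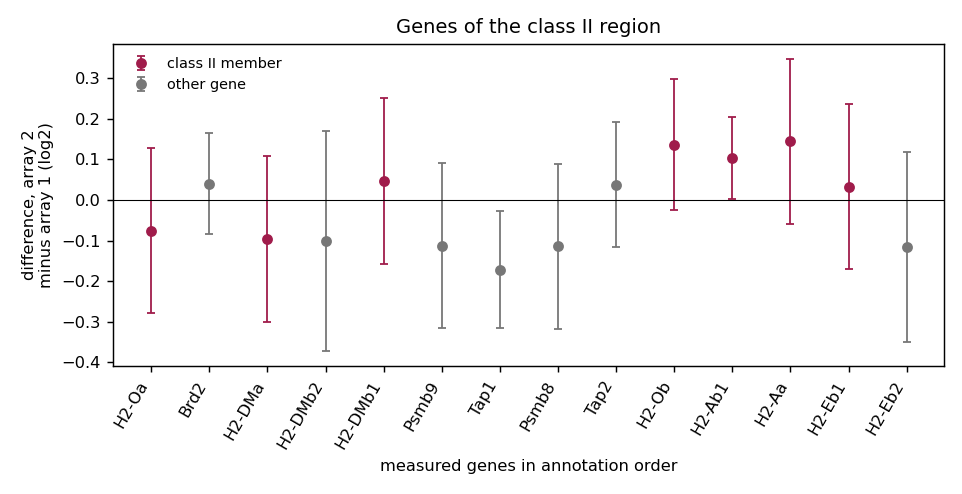
Difference between arrays (log2, array 2 minus array 1, bars of 1 scanner error) for the 14 measured genes from H2-Oa to H2-Eb2 in annotation order, with class II members in red and other genes in grey. The horizontal axis shows order only; Tap1 and H2-Ab1 are the genes whose bars do not reach 0.

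The factors that drive the class II promoter were all detected. The regulator list also holds the interferon gamma pathway to Ciita and lineage factors, and its 18 genes were all measured. On array 2, 8 of them were higher and 10 lower, and the median difference was -0.05. Taking only the brightest probe of each gene, the median was 0.004. Of the RFX complex, which binds the X box, Rfx5 differed by -0.11 ± 0.22, Rfxap by 0.05 ± 0.20 and Rfxank by -0.07 ± 0.20. The subunits of NF-Y, which binds the Y box, lay between -0.11 (Nfyc) and 0.01 (Nfya), each within its error. Among the larger differences were those of Zbtb46 (-0.51 ± 0.21), which also stands in the dendritic cell list, the kinase gene Jak2 (-0.23 ± 0.14) and Irf4 (0.22 ± 0.14). Zbtb46 was dim, at a level of -3.06 and -3.57, where the central 90% of differences ran from -0.51 to 0.91.

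Ciita is induced by interferon gamma, in part through Irf1, and other targets of the cytokine can be placed beside it. Irf1 was at a level of 3.32 and 3.17, differing by -0.14 ± 0.14. In the list of genes induced by interferon gamma, 11 of 13 measured genes were lower in array 2 and 2 were higher. Of all measured genes, 53.8% were higher. The list's median was -0.17, none differed by 2-fold, and 6 differed by more than their error, against 28.6% of all measured genes. Cxcl9, a chemokine of interferon gamma, differed by -0.69 ± 0.21, and the GTPase genes Iigp1, Gbp4 and Gbp6 by -0.41, -0.29 and -0.26. Ciita, H2-DMa and H2-Oa lay on the same side as this list, each within its error. The other members lay on the other side, and of them only H2-Ab1 exceeded its error. Whether these values are related was not tested.

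Genes of antigen processing in endosomes were mostly higher on array 2. Of 12 genes, all measured, array 2 was higher for 11. Under spike-in scaling the median of 0.10 was 0.03 and 8 of 12 were higher, against 36.2% of all measured genes. No gene of the list was 2-fold higher in the reported values. Ctsl, which encodes cathepsin L, was at a level of 2.01 and 2.80, differing by 0.79 ± 0.06. This narrow error comes from averaging repeated spots of its probe, treated as independent although read from the same hybridisation. Lgmn, the asparaginyl endopeptidase legumain, had 3.32 and 4.06, a difference of 0.75 ± 0.20. Lamp1 and Ctsh differed by 0.25 ± 0.14 and 0.22 ± 0.12. Ctss, the cathepsin that makes the last cuts in the invariant chain of most antigen-presenting cells, was at 6.47 and 6.46 (-0.01 ± 0.20), and Ifi30, the thiol reductase GILT, differed by 0.03 ± 0.20. Cathepsin L and legumain are lysosomal proteases of kidney tubules and macrophages too. Proximal tubule markers moved in the same direction, with 11 of 12 higher, 9 by 2-fold or more and a median of 1.18. Of all measured genes, 53.8% were higher and 1.43% were 2-fold or more apart in either direction. The summed signal of the proximal tubule markers was 24268 units on array 1 and 48886 on array 2. Their part in the processing genes was not tested.

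Surface partners of class II were also read. Of 10 genes for turnover, co-receptors and co-stimulation, all measured, 3 were higher and 7 lower in array 2, with a median of -0.07. The share of all measured genes that were higher was 53.8%. Marchf1 and Marchf8 encode ubiquitin ligases that take class II molecules off the surface, and differed by -0.20 ± 0.20 and 0.49 ± 0.14. Cd40, through which T cells license antigen-presenting cells, had a level of -2.20 and -2.99 and differed by -0.79 ± 0.24. Cd86 differed by -0.18 ± 0.12, Cd274, the PD-1 ligand, by -0.27 ± 0.20, and Cd80 by -0.05 ± 0.12. Cd4 and Lag3, which both bind class II, differed by -0.02 ± 0.14 and -0.09 ± 0.15.

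Markers of the cells that make class II were detected in part. In these sorted bulk samples, fewer cells of a type and less RNA per cell cannot be told apart. Of 12 dendritic cell markers, 11 were measured on both arrays, 5 higher and 6 lower in array 2. Their median of -0.03 became 0.003 with intensity-dependent centring and 0.03 with no filter on dim probes. Itgax, which encodes CD11c, had a level of 0.63 and 0.68, Flt3 differed by 0.37 ± 0.21, Ly75 by -0.52 ± 0.26 and Cd209a by -0.30 ± 0.15. Xcr1 was well above background on array 1 only. Siglech, a marker of plasmacytoid dendritic cells, was at a level of 6.39 and 6.25. The summed signal of the measured markers, 26815 units on array 1 and 23978 on array 2, was mostly this 1 gene (89.4% and 88.5%). Without Siglech it was 2840 and 2768 units.

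B cell genes were mostly faint. Of 12 B and plasma cell markers, 8 were measured on both arrays, 4 higher and 4 lower in array 2. Their median of -0.11 became 0.04 with normexp background correction. Stricter filtering of dim probes left only 3 of these genes, with a median of 0.09. Ms4a1, which encodes CD20, was at a level of -2.56 and -2.95, and Cd79a at -4.18 and -4.52, near the floors of -4.62 and -4.58. Pax5 and Blk were well above background on 1 array only, and Fcer2a and Fcrla on neither. Cd79b had a level of 2.56 and 2.26, a difference of -0.31 ± 0.20. It made up 71.7% and 66.2% of the summed signal of 2357 units on array 1 and 2018 on array 2. Without Cd79b the sum was 667 and 683 units, slightly higher on array 2.

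Macrophage and monocyte markers had a larger median difference than the dendritic cell and B cell lists. Of 16 markers, 14 were measured on both arrays, and array 2 was higher for 12 of them, against 53.8% of all measured genes. The median was 0.28, and 10 differed by more than their error, against 28.6% of all measured genes. That count was 6 of 11 for dendritic cell and 5 of 8 for B and plasma cell markers. It was 6 of 10 for endothelial and 1 of 13 for T cell and Treg markers. Adgre1, the F4/80 antigen, had a level of 1.045 and 1.503, a difference of 0.46 ± 0.20. C1qc and Apoe differed by 0.42 ± 0.20 and 0.41 ± 0.14, while Ccr2 differed by -0.41 ± 0.20. Mertk was well above background on 1 array only and Cd163 on neither. The summed signal was 15176 units on array 1 and 17525 on array 2. Apoe made up 30.8% and 34.6% of this sum, and without Apoe it was 10500 and 11469 units. Over the same arrays the summed signal of the 3 classical chains was 48056 and 49214 units, and that of Cd74 is given above. The part of dendritic cells, B cells and macrophages in the class II signal was not tested.

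**Figure D4:**
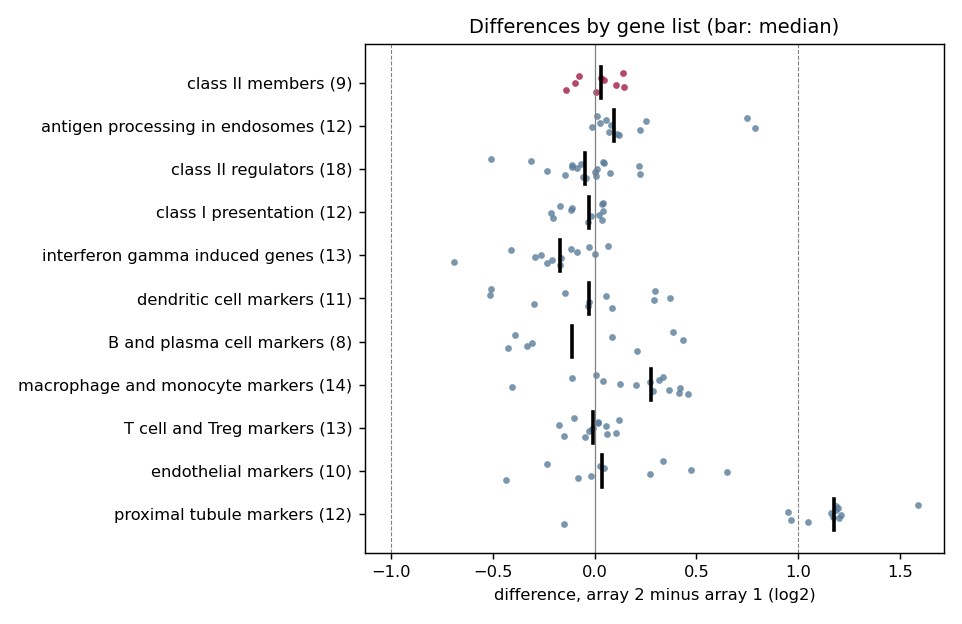
Difference between arrays (log2, array 2 minus array 1) of each measured gene in the class II family (red) and in 10 other lists (blue), with the number of measured genes in brackets, a black bar at each median and dashed lines at a 2-fold difference. The class II genes lie between -0.14 and 0.15 around a median of 0.03, while macrophage markers have a median of 0.28 and proximal tubule markers one of 1.18.

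T cell identity itself was clear. All 13 T cell and Treg markers with a matched probe were measured on both arrays, 6 higher and 7 lower in array 2, with a median of -0.01 that was 0.02 with the brightest probe. Cd3e, part of the T cell receptor complex and of the sort, was at 5.47 and 5.58. Foxp3, the lineage factor of Tregs, was at 4.92 and 4.74 (-0.17 ± 0.20), and Il2ra, which encodes CD25, at 4.89 and 5.01. Setting each array on the median of this list left the median of the class II genes at 0.04 and 6 of 9 genes higher.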

How the data were processed

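Cy3-labelled RNA was hybridised to 2 one-colour Agilent arrays, which were read with Agilent Feature Extraction 10.7.1.1 per the submitters' processing notes. Per the file headers, the processed signal intensity was made by the scanner software and not normalised between arrays; raw intensities and other flags (0 or 1) are also in the deposited files. The deposited value table holds a linear ratio of signal to a constant per array; no source used here states how the authors made it.

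Control spots (3671 per array) and outlier spots (75 and 56) were left out, spots of a probe averaged, and log2 levels taken against the 75th percentile. Of 56605 probes, 32994 received a single symbol through RefSeq accessions (GRCm38.p6, names and promoter windows only; the array names another build). Probes counted as measured when both arrays flagged them well above background (54.0% of probes passed on each array), and a gene's value averages its measured probes. Fold limits were 2 and 1.5. limma 3.58.1 gave normexp (offset 50). The gene calculation was tested on simulated data with shifts larger than any class II difference and a smaller spread than between these arrays. That test says nothing about differences as small as those of the members. The members and lists were chosen with earlier results of these data known. All 9 members were named, and from other lists the defining genes and up to 4 with the largest differences; genes shown beyond this were named after their values were seen. The number of arrays limits the precision. Results for some list genes are not reported here.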

Additional observations from a re-analysis of the deposited data

How the results depend on the processing

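Of the alternatives, 14 settings were run, the last 2 chosen after seeing the data (centring on the T cell list, and raw signal minus local background). All 9 genes were measured and none reached 2-fold in any of these settings, and none reached 1.5-fold in the reported values. The median of the class II genes was -0.03 with spike-in scaling, -0.02 with quantile normalisation and -0.03 with the value table, and between 0.002 and 0.04 elsewhere. The number of genes higher in array 2 was 3 with spike-in scaling and 3 with the value table, and 4 to 6 in the others. The exchanged lots of the value table turn every sign, so the proximal tubule median became -1.18 there, by construction. The share of all genes apart by 2-fold was 0.204% with normexp, 0.719% with the stricter filter, and 4.57% and 4.15% with no filter and the looser detection flag. The median of all genes was 0.01 in the reported values and -0.05 with spike-in scaling, the farthest of these settings. Naming probes by a gene name column was not run, because the scanner output used here names probes by accession. Leaving out an array was not run, as each lot has 1. Normexp used the raw median signal.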

Other observations

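Class I presentation and endothelial genes were read in this RNA as well. Of 12 class I genes, all measured, 5 were higher and 7 lower in array 2, with a median of -0.03. Under spike-in scaling 0 of 12 were higher, against 36.2% of all measured genes. B2m, the light chain of class I, was at 8.24 and 8.21, H2-K1 at 8.53 and 8.56 and H2-D1 at 7.72 and 7.70. Nlrc5, the class I counterpart of Ciita, differed by -0.21 ± 0.15, with 2.03 on array 1 and 1.82 on array 2. Of 12 endothelial markers, 10 were measured on both arrays, 6 higher and 4 lower in array 2. Their median was 0.04, and under spike-in scaling it was -0.03 with 4 of 10 higher, beside the same 36.2% of all measured genes. Eng differed by 0.65 ± 0.25, Esam by 0.47 ± 0.26, Plvap by 0.34 ± 0.22 and Emcn by 0.27 ± 0.21, while Pecam1 differed by -0.24 ± 0.21 and Cdh5 by -0.43 ± 0.35. Eng, Esam and Cdh5 were dim, with levels between -3.99 (Cdh5, array 2) and -2.43 (Eng, array 2). For genes with a mean level between -5 and -2, the central 90% of differences ran from -0.51 to 0.91, and these lay inside.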
